A study of Mus musculus with 8 samples.

Results

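Ventricular myosin is described here through 8 genes: the heavy chains Myh6, Myh7 and Myh7b, the light chains Myl2 and Myl3, the binding protein Mybpc3, and the kinases Mylk3 and Mylk4. They were chosen by symbol as parts or regulators of the ventricular thick filament, with earlier results of these data known. They are 8 of 24516 genes in the table of raw counts. All 8 had enough counts to be tested, among 15075 genes that did.

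Hearts were taken at postnatal day 40 from mice of 1 litter and profiled by bulk RNA sequencing. The mice were wild type (WT, n = 2), or carried a CRISPR/Cas9 deletion of a conserved enhancer of Actn2 on 1 allele (heterozygous, n = 3) or on both (homozygous, n = 3). The labels name no other allele or treatment, give no strain and no number of founders, and do not say whether whole hearts or ventricles were used. Actn2 encodes alpha-actinin of the sarcomeric Z-disc, and the study asked what this enhancer does in the living heart.

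Myosin is the motor of the thick filament. Each molecule joins a pair of heavy chains, which split ATP and pull on actin, with essential and regulatory light chains wrapped around the lever arm. In mouse ventricle the alpha heavy chain (Myh6) replaces the beta heavy chain (Myh7) after birth. Phosphorylation of the regulatory light chain (Myl2) by the cardiac kinase (Mylk3) tunes contraction, and myosin-binding protein C (Mybpc3) restrains the heads and sets how many are free to engage actin.

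Libraries held 22230090 to 55902737 counts. Levels are counts scaled by TMM to a common library size (CPM), and a gene is called changed when its adjusted p in edgeR's quasi-likelihood test, corrected over all genes tested, is under 0.05. WT library 2 stood apart: along the main axis of variation (principal component 1, with 35.9% of the variance) it lay at 61.4, WT library 1 at 10.8 and the 6 deletion libraries between -14.2 and -7.87. Across genes the WT libraries correlated with each other at r = 0.952. WT library 1 correlated with the deletion libraries at 0.957 to 0.966. The spread used in every test comes mostly from the deletion libraries, so adjusted p-values against WT may be too small. By Xist, which is made from the silenced X chromosome of females, WT library 1 came from a male (1.80 CPM) and WT library 2 from a female (535 CPM), as did heterozygous 2 and 3 and homozygous 2. Each genotype held both sexes. On principal component 1 the female deletion libraries lay at -10.7, -14.2 and -7.87, and the male ones at -12.8, -12.5 and -14.1. With a term for sex the same members were called as without it. Within WT each sex is 1 library, and why WT library 2 stood apart was not tested. Each member's result is therefore given with and without WT library 2. Actn2 itself was at 2187 and 2703 CPM in WT, 1546 to 1693 CPM in heterozygous and 1611 to 2115 CPM in homozygous hearts. The enhancer deletion itself cannot be seen in gene counts.

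The myosin genes split into a larger set that was lower and a smaller set that was higher in hearts with the deletion. In homozygous hearts 3 members fell (Myh7, Myh7b and Myl2) and 2 rose (Mylk3 and Mylk4). In heterozygous hearts 3 fell (Myh7b, Myl2 and Myl3) and the same 2 kinases rose. Of all genes tested, 27.7% were called in the homozygous comparison (15.3% higher and 12.4% lower), and 28% in the heterozygous one (15.2% higher and 12.8% lower). With both deletion genotypes together against WT, 4 members fell and 2 rose, where 33.7% of all genes were called (17.5% higher and 16.3% lower). These comparisons share the 2 WT libraries. Without WT library 2, 2 members rose (Mylk3 and Mylk4) and 1 fell (Myh7b) in homozygous hearts, where 13.7% of all genes were called. In heterozygous hearts 1 rose (Mylk4) and 1 fell (Myh7b), where 15.1% were called. In 5 of the 8 members, all 6 deletion libraries lay below both WT libraries (Myh6, Myh7, Myh7b, Myl2 and Myl3), as did 20.7% of all genes. In 2 members, Mylk3 and Mylk4, all 6 lay above both, as did 22.1% of all genes. The median log2 fold change of the members was -0.41 in homozygous and -0.40 in heterozygous hearts, against -0.034 over all genes in both.

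**Figure D1:**
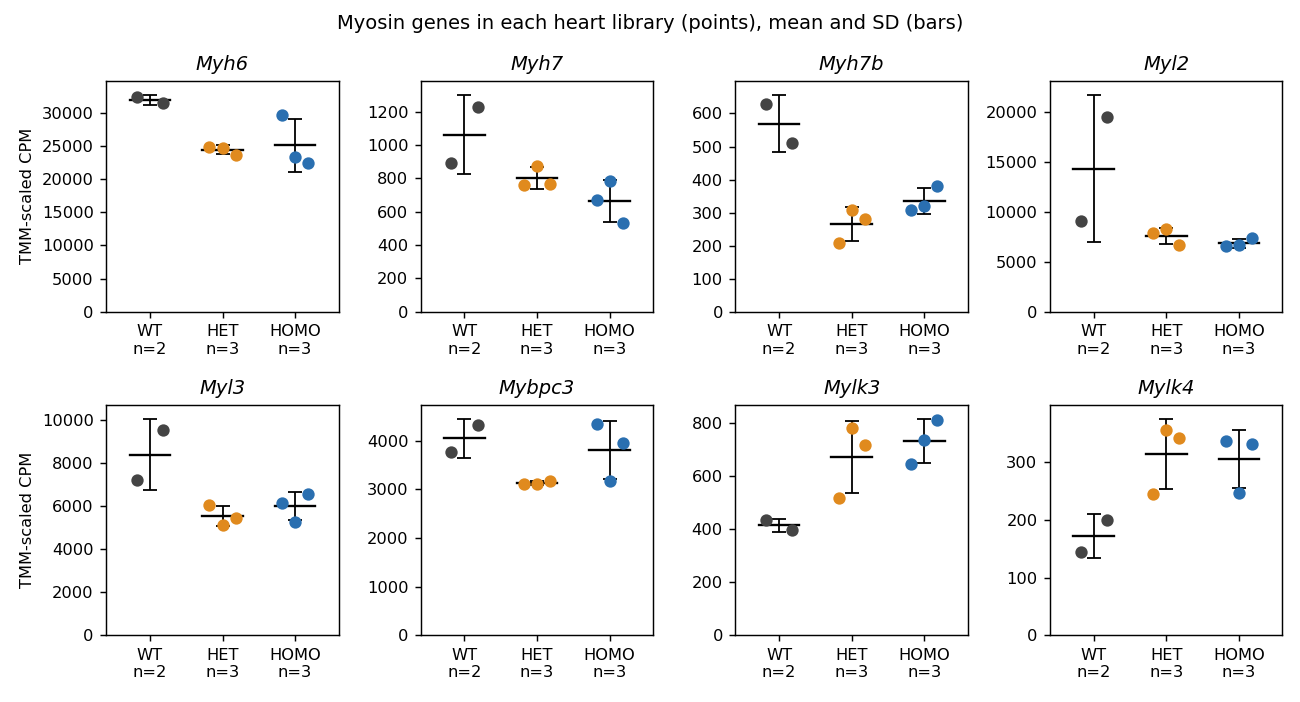
TMM-scaled CPM of each myosin gene (vertical axes, linear from 0, 1 scale per gene) in each WT, heterozygous (HET) and homozygous (HOMO) library, as points, with the group mean and SD as bars. The points of WT lie above all others for Myh6, Myh7, Myh7b, Myl2 and Myl3, and below all others for Mylk3 and Mylk4, while Mybpc3 overlaps.

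Levels between genes can be compared only per length of transcript. Per kilobase of the main transcript, Myl2 stood highest at a mean of 12384 CPM over the 8 libraries, followed by Myl3 at 6860 and Myh6 at 4343. Mybpc3 came next at 869, then Mylk3 at 171 and Myh7 at 131. Myh7b at 59.7 and Mylk4 at 49.5 were the lowest. Several neighbours in this order overlapped. Myl2 ranged over 9018 to 26819 and Myl3 over 5466 to 10201, although Myl2 was the higher of the pair in each library. Mylk3 ranged over 108 to 220 and Myh7 over 85.6 to 197 CPM per kilobase, and Myh7b over 33.6 to 102 and Mylk4 over 26.1 to 63.8. Myh6 ranged over 3659 to 5300 and Mybpc3 over 745 to 1043, with no overlap with each other or with Myl3. In the WT hearts Myh7 stood above Mylk3 in both libraries, and in the 6 deletion hearts it stood below it. With all annotated exons merged as the length, Myh6 at 3947 passed Myl3 at 3145. Unscaled, Myh6 was the most abundant gene of the whole table in every library, with 2.19% to 3.36% of all counts.

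The 8 genes together took 5.66% and 6.34% of all counts in the WT libraries and 4.15% to 4.80% in the 6 deletion libraries. Myh6 alone took 3.36% and 2.96% in WT and 2.19% to 2.93% in the deletion libraries.

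Myh6 encodes the alpha heavy chain, the fast isoform that carries most of the contraction of the adult mouse ventricle (mm10, chr14:54941921-54966927, minus strand). Its level was 32397 and 31404 CPM in WT, 24884, 24756 and 23608 CPM in heterozygous, and 29673, 23300 and 22368 CPM in homozygous hearts. Every deletion library lay below both WT libraries, and homozygous 1 lay closest to them. The log2 fold change was -0.35 in homozygous (SE 0.15, adjusted p = 0.121) and -0.39 in heterozygous hearts (SE 0.15, adjusted p = 0.0866), and neither passed the test. The values were -0.33 and -0.38 without WT library 2. DESeq2 called Myh6 lower in heterozygous hearts (adjusted p = 0.0315).

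Myh7 encodes the beta heavy chain, the slow isoform of the fetal mouse ventricle, and lies next to Myh6 on the same strand (chr14:54970684-54994626). Its level was 893 and 1227 CPM in WT, 757, 876 and 767 CPM in heterozygous, and 670, 783 and 533 CPM in homozygous hearts. Heterozygous 2, at 876 CPM, came close to WT library 1, and homozygous 3 was the lowest. Myh7 fell in homozygous hearts by 0.68 on the log2 scale (SE 0.19, adjusted p = 0.0228) and did not pass in heterozygous hearts (-0.41, SE 0.19, adjusted p = 0.135). The homozygous call rested on WT library 2, without which the value was -0.40 (adjusted p = 0.205). It was also lost without homozygous 1 (adjusted p = 0.0638) or homozygous 3 (0.0862), and in a model of the compared groups alone (-0.67, adjusted p = 0.0562). Without WT library 1 the heterozygous value was -0.61 (adjusted p = 0.0258). Its level was lower in every deletion library than in both WT libraries.

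Myh6 and Myh7 are near copies of each other, which limits how well short reads can be told apart between them. Their coding sequences matched at 91.66% of 5802 aligned bases. Of all stretches of 50 bases in the Myh6 transcript, 22.6% occur unchanged in Myh7, and 11.4% of stretches of 100 bases do. Myh7b shares none of these stretches with either gene and matched Myh6 at 72.35% of aligned coding bases. The longest run common to both transcripts, of 245 bases within the coding part (bases 4482 to 4726 of the Myh6 transcript and 4636 to 4880 of the Myh7 transcript, GENCODE vM21), is printed to show what a read from either gene would look like there.
Myh6 and Myh7, shared run: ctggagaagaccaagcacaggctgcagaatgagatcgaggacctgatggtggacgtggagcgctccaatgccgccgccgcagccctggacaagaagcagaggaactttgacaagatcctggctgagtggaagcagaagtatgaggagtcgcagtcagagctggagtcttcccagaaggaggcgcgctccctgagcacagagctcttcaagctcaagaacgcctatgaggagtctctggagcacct
How reads that match both genes were counted is not given in the sources used here, so the exact level of Myh7 beside the far more abundant Myh6 is uncertain.

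The ratio of the genes within a library does not depend on scaling. Myh7 counts were 2.76% and 3.91% of Myh6 counts in WT, 3.04%, 3.54% and 3.25% in heterozygous, and 2.26%, 3.36% and 2.38% in homozygous hearts. The groups overlapped. The mean log2 ratio differed by -0.16 between the 6 deletion and the 2 WT libraries (two-sided exact permutation test, p = 0.571, adjusted p = 0.571 over 6 ratios). With 2 libraries against 6 this test cannot go below 0.0714. Against WT library 1 alone the difference was 0.088.

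Myh7b encodes a further heavy chain of lower abundance (chr2:155611212-155634307, plus strand). Its level was 630 and 509 CPM in WT, 207, 306 and 282 CPM in heterozygous, and 308, 319 and 380 CPM in homozygous hearts. All 6 deletion libraries lay well below both WT libraries, and heterozygous 1 was the lowest. Myh7b fell by 1.10 on the log2 scale in heterozygous hearts (SE 0.18, adjusted p = 0.00210) and fell by 0.76 in homozygous hearts (SE 0.18, adjusted p = 0.0120). Leaving out WT library 2 gave -1.22 (adjusted p = 0.00268) and -0.88 (adjusted p = 0.0156). Both calls held under every alternative run, with adjusted p-values up to 0.0136 in heterozygous and 0.0488 in homozygous hearts.

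Each of the 3 heavy chain genes carries a microRNA in an intron, and these form a related family known from the heart as myomiRs. Mir208a lies in intron 29 of Myh6, Mir208b in intron 31 of Myh7 and Mir499 in intron 19 of Myh7b, each on its host's strand and none touching an exon of it. The mature sequences are printed because they tie the 3 genes together, with the seed (bases 2 to 8, which pair with target RNAs) in capitals (RefSeq sequences, GRCm38.p6, 5′ to 3′; chr14:54949072-54949093, chr14:54975710-54975731 and chr2:155622893-155622913).
mmu-miR-208a-3p: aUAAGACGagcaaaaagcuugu
mmu-miR-208b-3p: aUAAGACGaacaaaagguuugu
mmu-miR-499-5p: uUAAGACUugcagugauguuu
The seeds of miR-208a-3p and miR-208b-3p are identical, and 19 of their 22 bases agree. The seed of miR-499-5p shares 6 of its 7 bases with them.

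Of the 3 microRNA genes, which were added after their values were seen, only Mir208b was called. Mir208b had 75.6 and 92.1 CPM in WT, 37.8, 46.5 and 35.0 CPM in heterozygous, and 29.3, 49.8 and 36.9 CPM in homozygous hearts. The deletion libraries all lay below both WT libraries. Mir208b was called lower in homozygous (log2 fold change -1.12, SE 0.21, adjusted p = 0.00415) and heterozygous hearts (-1.08, SE 0.21, adjusted p = 0.00453). With WT library 2 left out, the values were -0.93 (adjusted p = 0.0467) and -0.90 (adjusted p = 0.0509). Mir208a had only 17 to 153 counts a library and did not pass the test (-1.03, adjusted p = 0.183 in homozygous hearts). Mir499 had 0 to 4 counts and was not tested. Mhrt, a long noncoding RNA on the strand opposite Myh7 that overlaps its end (chr14:54968678-54974349), was at 85.3 and 98.9 CPM in WT and 38.3 to 53.8 CPM in the deletion hearts. It fell by 1.02 in homozygous hearts (SE 0.16, adjusted p = 0.00165) and fell by 0.96 in heterozygous hearts (SE 0.16, adjusted p = 0.00206). The labels do not give the strand setting of the counting, so reads of Mhrt and of Myh7 cannot be told apart where they overlap. Nor can reads of a hairpin be told apart from unspliced RNA of its host.

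Myl2 encodes the regulatory light chain of the ventricle, the substrate of cardiac myosin light chain kinase (chr5:122100951-122113472, plus strand). Its level was 9128 and 19551 CPM in WT, 7904, 8271 and 6702 CPM in heterozygous, and 6574, 6696 and 7395 CPM in homozygous hearts. The WT libraries differed from each other more than WT library 1 did from any deletion library. Myl2 fell by 1.06 on the log2 scale in homozygous hearts (SE 0.26, adjusted p = 0.0133) and fell by 0.91 in heterozygous hearts (SE 0.26, adjusted p = 0.0247). Without WT library 2 the values were -0.37 (adjusted p = 0.139) and -0.23 (adjusted p = 0.367), so both calls rested on that library. Leaving out any 1 heterozygous library also ended the heterozygous call (adjusted p = 0.0567 to 0.0875), as did a model of the compared groups alone (0.0706).

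Myl3 encodes the essential light chain of the ventricle, which stiffens the lever arm (chr9:110741861-110769798, plus strand). Its level was 7216 and 9558 CPM in WT, 6064, 5122 and 5467 CPM in heterozygous, and 6149, 5281 and 6563 CPM in homozygous hearts. All deletion libraries lay below both WT libraries, with homozygous 3 nearest. Myl3 fell by 0.60 on the log2 scale in heterozygous hearts (SE 0.17, adjusted p = 0.0232). In homozygous hearts it was at -0.48 (SE 0.17, adjusted p = 0.0531). There it was called with scaling to total counts (-0.47, adjusted p = 0.0370), by DESeq2 (-0.48, adjusted p = 0.0173) and without WT library 1 (-0.67, adjusted p = 0.00669). The heterozygous value was -0.35 (adjusted p = 0.176) and the homozygous value -0.23 (adjusted p = 0.385) without WT library 2. Leaving out heterozygous 2 or 3 also ended the heterozygous call (adjusted p = 0.0874 and 0.0755), as did a model of the compared groups alone (0.0709).

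Expression also followed gene properties (GC content and the lengths of the transcript and of its 3′ UTR) to a different degree in each library. A correction that removed these trends moved the light chains and Mylk4 most. Myl2 and Myl3 have the shortest transcripts of the members, at 729 and 937 bases, and Mylk4 the longest 3′ UTR, at 4410 bases. After the correction Myl2 was at -0.46 in homozygous (adjusted p = 0.127) and -0.34 in heterozygous hearts (adjusted p = 0.250). Myl3 moved to 0.10 and -0.029 (adjusted p = 0.650 and 0.912). Mylk4 moved to 0.30 and 0.33 (adjusted p = 0.401 and 0.366). Myh7 stayed lower in homozygous hearts (-0.78, adjusted p = 0.0182). Myh7b (-0.68, adjusted p = 0.0197 and -0.98, adjusted p = 0.00477) and Mylk3 (0.74, adjusted p = 0.0197 and 0.63, adjusted p = 0.0370) stayed called in both genotypes.

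**Figure D2:**
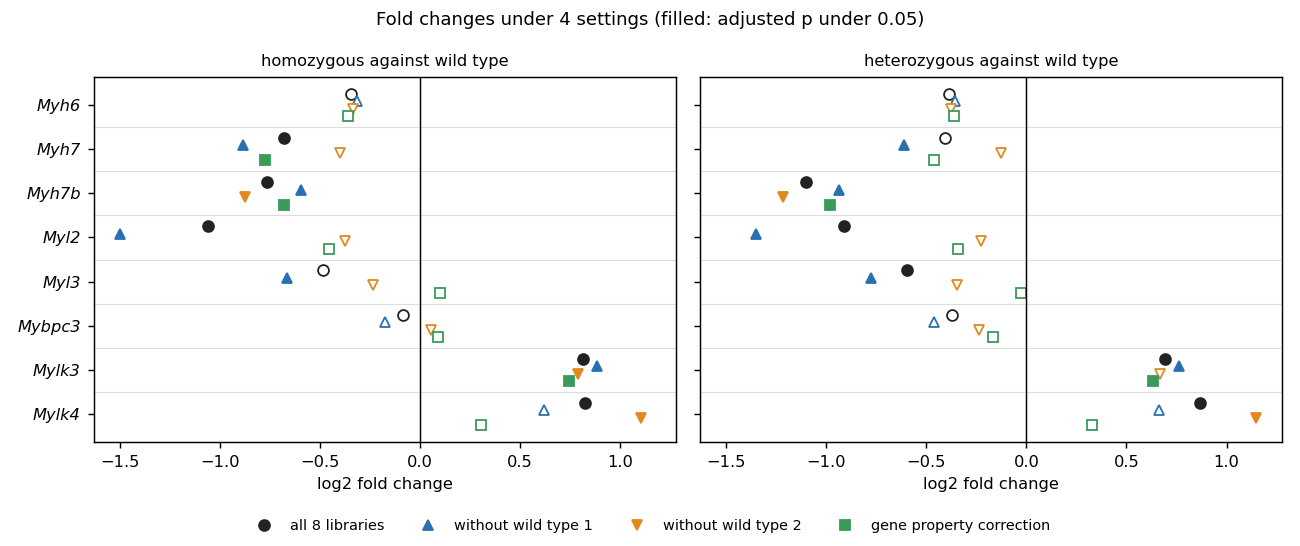
Log2 fold change (horizontal axes) of each myosin gene against WT in homozygous (left) and heterozygous hearts (right), with all 8 libraries, without WT library 1, without WT library 2 and after the correction for gene properties. Filled points have an adjusted p under 0.05. Myh7b is filled in all 4 settings on both sides, and Mylk3 in all 4 for homozygous hearts, while Myl2 and Myl3 move toward or past 0 without WT library 2 and after the correction.

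Mybpc3 encodes cardiac myosin-binding protein C (chr2:91118144-91136516, plus strand). Its level was 3765 and 4327 CPM in WT, 3101, 3102 and 3180 CPM in heterozygous, and 4341, 3168 and 3944 CPM in homozygous hearts. The heterozygous libraries lay below both WT libraries, while the homozygous ones spanned the WT range and beyond it on both sides. The log2 fold change was -0.37 in heterozygous (SE 0.16, adjusted p = 0.104) and -0.08 in homozygous hearts (SE 0.16, adjusted p = 0.732), and neither passed. They were -0.24 and 0.053 without WT library 2. Mybpc3 counts were 11.3% and 13.3% of the summed Myh6 and Myh7 counts in WT and 12.1% to 17.2% in the deletion hearts. That log2 ratio differed by 0.15 (two-sided exact permutation test, p = 0.429, adjusted p = 0.514).

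Mylk3 encodes the cardiac myosin light chain kinase, which phosphorylates Myl2 (chr8:85324303-85386345, minus strand). Its level was 433 and 399 CPM in WT, 519, 781 and 718 CPM in heterozygous, and 646, 738 and 812 CPM in homozygous hearts. All 6 deletion libraries lay above both WT libraries, and the WT libraries lay close together. Mylk3 rose by 0.82 on the log2 scale in homozygous hearts (SE 0.19, adjusted p = 0.00987) and by 0.69 in heterozygous hearts (SE 0.19, adjusted p = 0.0194). Leaving out WT library 2 gave 0.79 (adjusted p = 0.0428) and 0.66 (adjusted p = 0.0732). The homozygous call held under every alternative run, with adjusted p-values up to 0.0433. In heterozygous hearts the call also ended without heterozygous 2 (adjusted p = 0.0674), without heterozygous 3 (0.0596) and in a model of the compared groups alone (0.69, adjusted p = 0.0564).

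Mylk4 encodes a further kinase of the same family, expressed in the heart (chr13:32700834-32783954, minus strand). The coding sequences of Mylk3 and Mylk4 matched at 71.26% of 1155 aligned bases. Its level was 145 and 200 CPM in WT, 246, 356 and 342 CPM in heterozygous, and 336, 247 and 332 CPM in homozygous hearts. All deletion libraries lay above both WT libraries, with heterozygous 1 and homozygous 2 nearest to them. Mylk4 rose by 0.87 in heterozygous (SE 0.21, adjusted p = 0.0135) and by 0.82 in homozygous hearts (SE 0.21, adjusted p = 0.0172). The values were 1.15 (adjusted p = 0.0144) and 1.11 (adjusted p = 0.0183) without WT library 2. Without WT library 1 both calls were lost (0.66, adjusted p = 0.0574 and 0.62, adjusted p = 0.0709). The homozygous call was also lost without homozygous 1 (adjusted p = 0.0579) or homozygous 3 (0.0597).

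The promoters of Mylk3, Mylk4 and Myh7b are printed because Mylk3 and Myh7b kept their homozygous calls under every alternative, in opposite directions, and Mylk4 rose beside Mylk3. Each stretch runs from 250 bases before to 50 after a RefSeq transcript start (GRCm38.p6, 5′ to 3′ on the gene's strand; chr8:85380992-85381291, minus; chr13:32783915-32784214, minus; chr2:155610993-155611292, plus). Capitals mark matches on either strand to 5 motifs. The GATA motif was searched as AGATAA. For the TATA motif the letters were TATAAA, and for the M-CAT motif of muscle genes they were CATTCC. The MEF2 box and the CArG box were searched by their consensus. No marked matches overlap in these windows.
Mylk3: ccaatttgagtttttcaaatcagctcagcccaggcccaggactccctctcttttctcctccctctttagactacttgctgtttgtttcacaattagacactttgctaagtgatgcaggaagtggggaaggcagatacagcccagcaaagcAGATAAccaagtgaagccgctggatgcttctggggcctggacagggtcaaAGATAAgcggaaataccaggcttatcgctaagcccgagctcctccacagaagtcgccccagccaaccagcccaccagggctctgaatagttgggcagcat
Mylk4: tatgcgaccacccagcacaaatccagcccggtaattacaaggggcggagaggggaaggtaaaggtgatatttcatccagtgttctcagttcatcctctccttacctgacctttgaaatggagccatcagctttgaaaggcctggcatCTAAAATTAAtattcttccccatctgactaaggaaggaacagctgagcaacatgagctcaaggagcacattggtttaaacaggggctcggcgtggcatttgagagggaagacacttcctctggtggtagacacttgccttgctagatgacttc
Myh7b: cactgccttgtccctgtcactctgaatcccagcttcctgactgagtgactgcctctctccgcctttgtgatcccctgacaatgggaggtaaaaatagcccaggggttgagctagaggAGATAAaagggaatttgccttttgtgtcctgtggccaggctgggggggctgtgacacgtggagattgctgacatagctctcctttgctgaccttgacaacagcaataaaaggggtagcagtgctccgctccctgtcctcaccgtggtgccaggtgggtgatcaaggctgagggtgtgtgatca
The Mylk3 window holds the GATA motif at positions -100 and -50 from the start, and the Myh7b window holds it at -133. The Mylk4 window holds a MEF2 box at -103. Of 32851 promoter windows of the same length, 11.2% hold the GATA motif at least once and 3.19% a MEF2 box. The GATA letters are thus common by themselves and those of the MEF2 box less so. The share of windows with 2 GATA matches was not computed. The printed windows of the kinases share none of the 5 marked motifs. A second RefSeq start of Mylk3, whose window (chr8:85365275-85365574) is not printed, has the M-CAT motif at -148. Unmarked E-boxes, searched as CANNTG, occur in all 3 windows and in 72.3% of all promoter windows. The nuclear receptor half-site AGGTCA occurs in the windows of Mylk4 and Myh7b and in 16.3% of all. A match is a run of letters and not a measured binding site. The Mylk3 start lies inside the annotated gene, whose first base in GENCODE is 85386345.

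The counts of the kinase were higher relative to those of its substrate in the deletion hearts, in a test that cannot pass with 2 WT libraries. Mylk3 counts were 4.75% and 2.04% of Myl2 counts in WT, 6.56%, 9.44% and 10.7% in heterozygous, and 9.83%, 11.0% and 11.0% in homozygous hearts. All 6 deletion libraries lay above both WT libraries. That was fixed beforehand, since Mylk3 lay above and Myl2 below both WT libraries in all 6, so the ratio adds no further support. The transcripts have 3696 and 729 bases. The ratio was not corrected for gene properties, a correction that moved Myl2 toward 0. The mean log2 ratio was higher by 1.63 (two-sided exact permutation test, p = 0.0714, the smallest this design allows, adjusted p = 0.143 over 6 ratios). Against WT library 1 alone the difference was 1.02, and against WT library 2 alone 2.24. Myl3 counts were 79.0% and 48.9% of Myl2 counts in WT and 61.9% to 93.5% in the deletion hearts. The groups overlapped for that ratio (difference 0.36, exact permutation p = 0.286, adjusted p = 0.429).

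**Figure D3:**
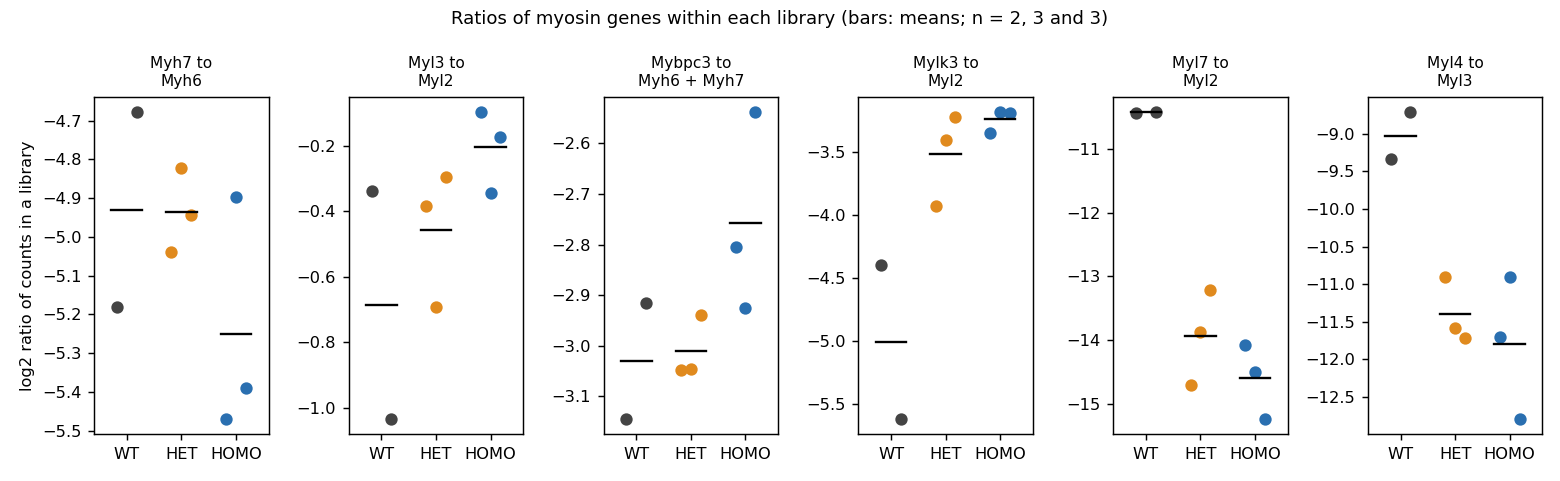
Log2 ratio of counts of pairs of myosin genes within each library (vertical axes, 1 scale per ratio, not starting at 0) by genotype, with group means as bars. The ratio of Mylk3 to Myl2 is higher in all 6 deletion libraries than in both WT libraries, those of Myl7 to Myl2 and Myl4 to Myl3 are lower in all 6, and the other 3 ratios overlap.

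Heterozygous and homozygous hearts were not told apart in any member. For homozygous against heterozygous, edgeR's quasi-likelihood test called 0 of the 8 members and 0 of 15075 genes (0% in each direction). At an unadjusted p under 0.05 it had 411 genes, none of them a member. DESeq2 called 3 genes and limma-voom 1. The largest differences among the members were in Myh7b, higher in homozygous hearts by 0.34 (95% interval -0.028 to 0.71), and Mybpc3, higher by 0.29 (-0.027 to 0.60). Myh7 differed by -0.27 (-0.65 to 0.11). The intervals of Myh6 (-0.27 to 0.35), Myl3 (-0.22 to 0.45) and Mylk3 (-0.24 to 0.48) lie within 1 on the log2 scale on either side of 0, as do those of Myl2 (-0.66 to 0.37) and Mylk4 (-0.46 to 0.37). A missed threshold does not show that the genotypes have equal levels.

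**Figure D4:**
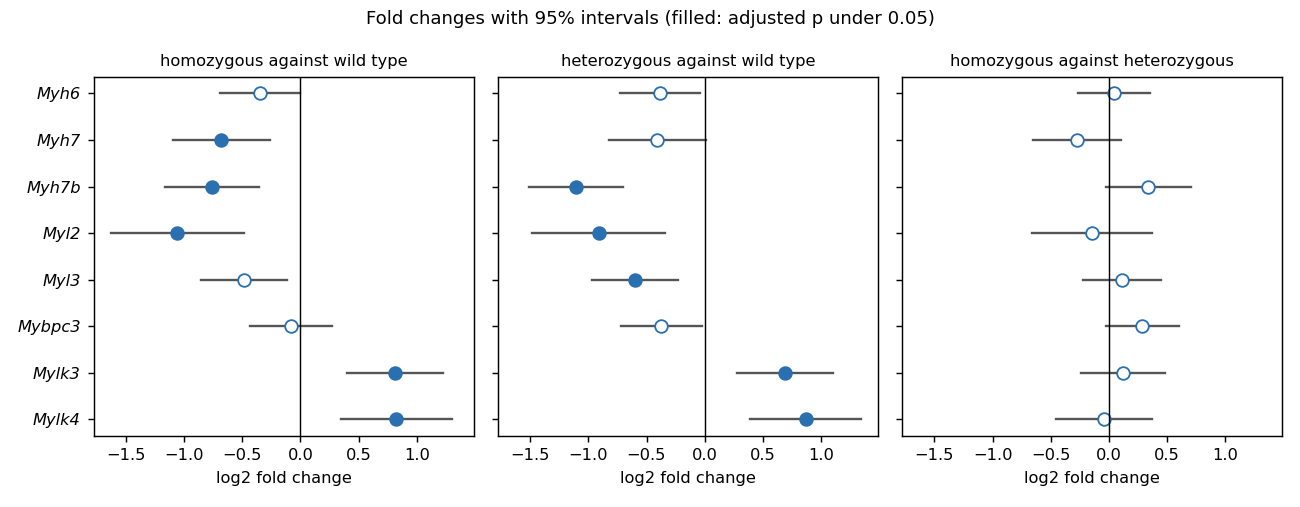
Log2 fold change of each myosin gene with its 95% interval (horizontal axes) for homozygous against WT, heterozygous against WT and homozygous against heterozygous hearts. Filled points have an adjusted p under 0.05. Points lie on the same side of 0 in both comparisons with WT for all 8 genes, and every interval in the right panel includes 0.

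Among themselves, the members formed 2 sets over the 8 libraries. On log2 CPM, Mylk3 and Mylk4 followed each other at r = 0.84, and Myl2 and Myl3 at r = 0.86. Mylk3 ran against Myh6 at r = -0.83 and against Myl3 at r = -0.80, while Mybpc3 and Myh7 were hardly related at r = 0.064. These values describe 8 libraries that share genotypes, 1 litter and the stretch between WT library 2 and the rest. Among 9049 well expressed genes, the one most like Myl2 was Tnni3, cardiac troponin I of the thin filament, at r = 0.996. The closest to Myl3 was Cttn, the actin-binding cortactin (r = 0.991), and the closest to Myh7 was Adamtsl2, a secreted matrix protein (r = 0.991). The closest to Mylk3 was Aak1, a kinase of clathrin-coated vesicles (r = 0.990), and to Mylk4 it was Dyrk1a, a nuclear kinase (r = 0.984). Myh7b was most like Tmem109 (r = 0.976), Mybpc3 like Mrm1 (r = 0.974) and Myh6 like Pgd, an enzyme of the pentose phosphate pathway (r = 0.965).

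Light chain phosphorylation is set by the kinases, by calmodulin and by a phosphatase of a catalytic subunit and a myosin-binding subunit. Of 17 other genes of this control that were tested, 7 rose and 4 fell in homozygous hearts and 7 rose and 5 fell in heterozygous hearts, with medians of 0.39 and 0.23. That is 41.2% higher and 23.5% lower in homozygous and 41.2% and 29.4% in heterozygous hearts, beside 15.3% and 12.4%, and 15.2% and 12.8%, of all genes. The largest change was in Ppp1r12b, the myosin-binding subunit of the phosphatase that is typical of striated muscle. It was at 23.2 and 14.9 CPM in WT, 132, 141 and 162 CPM in heterozygous, and 170, 167 and 166 CPM in homozygous hearts. Every deletion library lay far above both WT libraries. The log2 fold change was 3.14 in homozygous (SE 0.20, adjusted p = 2.04e-05) and 2.93 in heterozygous hearts (SE 0.19, adjusted p = 3.76e-05). It was 2.88 and 2.67 without WT library 2, and after the correction 3.22 and 3.04. Ppp1r12a, the widely expressed form of that subunit, rose by 0.97 and 0.94 (adjusted p = 0.00155 and 0.00167). Ppp1cb, the catalytic subunit, rose by 0.91 in both (adjusted p = 0.00142 and 0.00130), but was at 0.24 and 0.22 after the correction (adjusted p = 0.177 and 0.215). Rock2, a kinase that inhibits the phosphatase, rose by 1.22 and 1.26 (adjusted p = 0.000303 and 0.000233), and by 0.50 and 0.52 after the correction. After the correction 5 of the 17 rose and 3 fell in homozygous hearts, and 4 rose and 2 fell in heterozygous hearts, where 8.80% and 8.10% of all genes were higher and 5.91% and 5.72% lower. With WT library 2 left out, 7 rose and 1 fell in homozygous hearts, and 6 rose and 2 fell in heterozygous hearts. The shares over all genes were then 10.1% and 10.5% higher and 3.58% and 4.62% lower.

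The list of the other myosin chains and binding proteins, of atrium, smooth muscle, skeletal muscle and nonmuscle cells, has 23 genes, of which 16 were tested. Mybpc1 (0.386 and 0.347 CPM in WT) and Mybphl (0.424 and 0.485 CPM) passed the filter on low counts only through WT, so they had to be lower in the deletion hearts and are not counted. Of the 14 that passed it in the WT libraries alone and in the deletion libraries alone, a restriction chosen after seeing the data, 8 fell and 0 rose in homozygous hearts, and 7 fell and 0 rose in heterozygous hearts. Of all genes that passed in both, 16.5% were higher and 13.5% lower in homozygous hearts, and 16.4% and 14% in heterozygous hearts. The median log2 fold changes of the 14 were -0.89 and -0.94, against -0.042 over those genes. The atrial regulatory light chain Myl7 was at 6.59 and 14.2 CPM in WT and 0.177 to 0.684 CPM in the deletion hearts. It fell by 5.23 in homozygous hearts (SE 0.49, adjusted p = 0.000157) and fell by 4.36 in heterozygous hearts (SE 0.47, adjusted p = 0.000305). The atrial essential light chain Myl4 was at 11.1 and 22.8 CPM in WT and 0.915 to 3.13 CPM in the deletion hearts, with log2 fold changes of -3.19 (SE 0.47, adjusted p = 0.00151) and -3.01 (SE 0.47, adjusted p = 0.00188). Both stayed called without WT library 2 (Myl7 at -4.54 and -3.67, Myl4 at -2.54 and -2.36). Against the ventricular chains, Myl7 was 0.0722% and 0.0729% of Myl2 counts in WT and 0.00239% to 0.0102% in the deletion hearts. Myl4 was 0.154% and 0.239% of Myl3 counts in WT and 0.0139% to 0.0521% in the deletion hearts. The log2 ratios differed by -3.85 and -2.57 (exact permutation p = 0.0714 for each, the smallest this design allows, adjusted p = 0.143), without overlap. The nonmuscle light chain Myl12b fell, at -1.14 and -1.29 (adjusted p = 0.00205 and 0.00102), and so did the fast binding protein Mybpc2, at -0.95 and -1.20 (adjusted p = 0.00379 and 0.00116). Without WT library 2, 5 of the 14 fell and 0 rose in each genotype, where 4.03% and 5.22% of genes that passed in both were lower. After the correction it was again 5 and 0 in each, where 6.30% and 6.11% were lower. Myh1, Myh2 and Myh4, the adult skeletal heavy chains, were at or near 0 in all libraries.

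The scaffold and assembly genes of the thick filament moved in both directions. Of 16 tested, 6 rose and 2 fell in homozygous hearts, and 6 rose and 4 fell in heterozygous hearts, with medians of 0.24 and -0.036. That is 37.5% higher in each genotype and 12.5% and 25% lower. Over all genes 15.3% and 15.2% were higher and 12.4% and 12.8% lower, so the homozygous share of lower genes was near that of all genes. Leaving out WT library 2, 5 rose and 1 fell in homozygous and 5 rose and 2 fell in heterozygous hearts. After the correction 4 rose and 1 fell, and 4 rose and 0 fell, where 8.80% and 8.10% of all genes were higher and 5.91% and 5.72% lower. The shares without WT library 2 are those given for the phosphorylation control genes. Unc45a, a chaperone that helps fold myosin heads, fell, at -1.08 (SE 0.18, adjusted p = 0.00260) and -0.83 (SE 0.18, adjusted p = 0.00826). WT library 2 carried the heterozygous call (-0.45 without it, adjusted p = 0.0971). Its partner Hsp90aa1 rose by 0.60 and 1.05 (adjusted p = 0.00615 and 0.000451). The related and more abundant genes of the list overlapped between deletion and WT libraries. Unc45b was at 215 and 183 CPM in WT and 150 to 240 CPM in the deletion hearts. Hsp90ab1 was at 1568 and 1402 CPM in WT and 1328 to 1682 CPM in the deletion hearts. Fbxo32, the muscle ubiquitin ligase atrogin-1, rose by 1.25 and 1.13 (adjusted p = 0.00527 and 0.00751). Ttn, the giant titin that spans the filament, rose by 0.83 and 0.76 (adjusted p = 0.00276 and 0.00372), but after the correction it was at -0.033 and -0.40 (adjusted p = 0.905 and 0.0971).

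Among 24 regulators of myosin gene transcription, 11 rose and 3 fell in homozygous hearts, and 10 rose and 3 fell in heterozygous hearts, with medians of 0.46 and 0.42. The shares were 45.8% and 41.7% higher and 12.5% lower in each, beside 15.3% and 15.2% higher and 12.4% and 12.8% lower over all genes. Tead1, which binds M-CAT motifs of muscle genes, was at 183 and 124 CPM in WT and 357 to 436 CPM in the deletion hearts. It rose by 1.33 and 1.39 (adjusted p = 0.000927 and 0.000690). Myocd, the coactivator of serum response factor, was at 25.8 and 33.6 CPM in WT and 70.2 to 102 CPM in the deletion hearts, and rose by 1.33 and 1.48 (adjusted p = 0.00102 and 0.000633). Sox6, which represses slow-fibre genes in skeletal muscle, rose by 0.89 and 1.05 (adjusted p = 0.00428 and 0.00178). Sp3 rose by 0.77 and 0.95 (adjusted p = 0.00145 and 0.000541), but was at 0.24 and 0.39 after the correction (adjusted p = 0.208 and 0.0559). After the correction 8 rose and 2 fell in homozygous hearts and 7 rose and 1 fell in heterozygous hearts. With WT library 2 left out, 9 rose and 0 fell in each genotype. The shares over all genes in those fits are the ones given for the phosphorylation control genes.

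**Figure D5:**
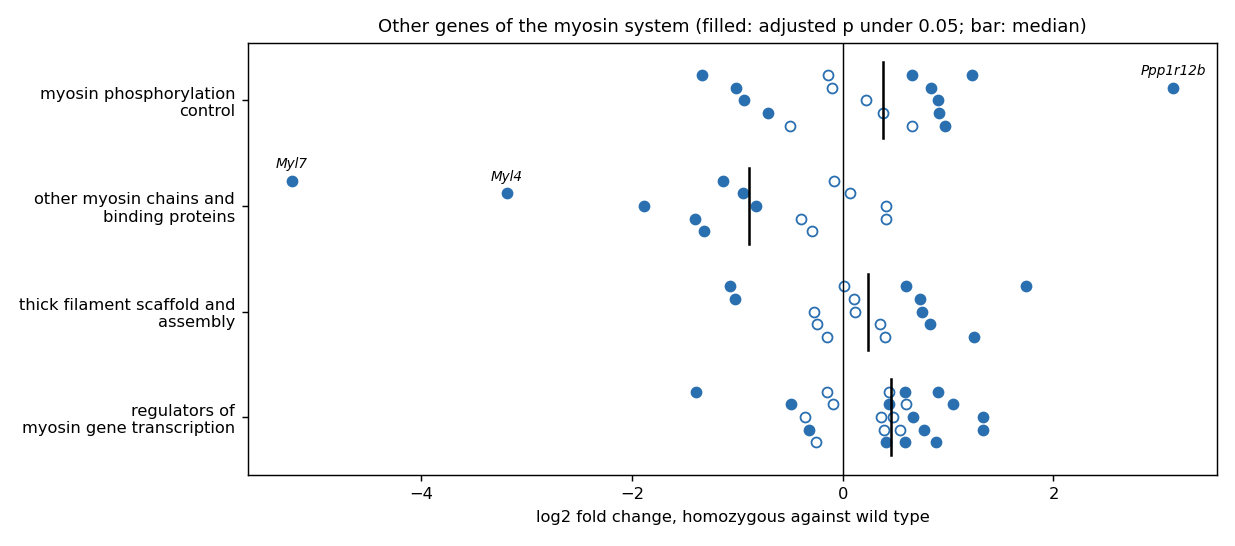
Log2 fold change (horizontal axis) of each gene of 4 lists of the myosin system that passed the filter on low counts in the WT and in the deletion libraries, in homozygous against WT hearts, 1 point a gene, filled where the adjusted p is under 0.05, with the median of each list as a bar. Called genes among the other myosin chains all lie below 0, led by Myl7 and Myl4, while Ppp1r12b at 3.14 lies farthest to the right.

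Markers of heart cell types were read beside the myosin genes. Over all genes, 15.3% were higher and 12.4% lower in homozygous hearts, and 15.2% and 12.8% in heterozygous hearts. A count near these shares does not set a list apart from other genes. Shares for genes that passed in both and for the other fits are given above. The summed level of 14 cardiomyocyte markers was 76347 and 77664 CPM in WT and 81016 to 85112 CPM in the deletion hearts, with 4 rising and 3 falling in homozygous hearts and 4 each way in heterozygous hearts. The sum of 10 atrial markers was 388 and 649 CPM in WT and 149 to 480 CPM in the deletion hearts, and Bmp10 was at or near 0 throughout. That sum mostly reads Nppa, at 283 and 514 CPM in WT and 93.1 to 415 CPM in the deletion hearts, with overlap. Of the atrial markers, Sln (2.93 and 5.27 CPM in WT) and Mybphl passed the filter only through WT and are not counted. Of the 7 that passed in both, 4 fell and 1 rose in each genotype, and without WT library 2, 3 fell in homozygous and 4 in heterozygous hearts and 0 rose. The sum of 12 endothelial markers was 1986 and 2015 CPM in WT and 1312 to 1623 CPM in the deletion hearts. Of these, 6 fell and 0 rose in homozygous hearts, and 5 fell and 1 rose in heterozygous hearts. The sum of 12 smooth muscle and pericyte markers was 1749 and 2024 CPM in WT and 1405 to 1770 CPM in the deletion hearts. Its largest part, Rgs5, overlapped between the groups, at 644 and 888 CPM in WT and 798 to 1071 CPM in the deletion hearts. Of these 12 markers, 5 fell in homozygous hearts and 8 fell in heterozygous hearts, and 0 rose in either. Without WT library 2 fewer of both lists were called lower. The endothelial medians were then -0.39 in each genotype, against -0.52 and -0.51 with all libraries. Those of the smooth muscle and pericyte markers were -0.62 and -0.81, against -0.77 and -1.07. None of 12 fibroblast markers was called by edgeR with all libraries in either genotype, while after the correction 2 and 1 fell. The sum of 12 macrophage and leukocyte markers was 727 and 856 CPM in WT and 584 to 816 CPM in the deletion hearts, highest in WT library 2, with 1 rising and 3 falling in homozygous and 2 each way in heterozygous hearts. Cd74 of antigen-presenting cells was at 134 and 339 CPM in WT and 78.2 to 91.9 CPM in the deletion hearts. C1qa also lay lower, at 114 and 122 CPM in WT and 53.5 to 82.1 CPM in the deletion hearts. Adgre1 lay higher, at 7.06 and 9.39 CPM in WT and 14.03 to 19.96 CPM in the deletion hearts. So did Mrc1, at 59.6 and 39.2 CPM in WT and 66.5 to 127 CPM in the deletion hearts. The other markers of this list overlapped between the groups. The sum of 8 adipocyte markers was 934 and 1289 CPM in WT and 611 to 1072 CPM in the deletion hearts, also highest in WT library 2. That sum mostly reads 1 of these markers, Fabp4, at 933 and 1271 CPM in WT and 611 to 1071 CPM in the deletion hearts. Of the 3 that were tested, Cfd (1.08 and 11.1 CPM in WT, at most 0.305 CPM elsewhere) and Cidec passed the filter only through WT, and Lep was at or near 0. Of 7 skeletal muscle markers that passed in both, 2 fell in homozygous and 1 in heterozygous hearts, and the sum of 15 overlapped between the groups (1105 to 1362 CPM). That sum mostly reads Ckm (1016 to 1316 CPM), which is also among the cardiomyocyte markers. The 2 erythroid markers tested were not called, and the globins were at or near 0. The part of these cells and of the chambers sampled in the myosin results was not tested. In bulk hearts, fewer cells of a type and less RNA per cell cannot be told apart.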

How the data were processed

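The authors deposited raw counts per gene symbol, 1 column per library. Per the submitters' processing notes, the tools named are Trimmomatic 0.36, HISAT2, Subread with featureCounts, and DESeq2, and the build is mm10. Per the labels' protocols, RNA came from Trizol lysates and libraries were made with a TruSeq kit. The sources used here do not give the annotation, the strand setting, the read length or the treatment of multi-mapping reads.

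In R 4.3.3, the filterByExpr function of edgeR 4.0.16 (grouped by genotype) chose the genes to test. Libraries were scaled by TMM, and 1 robust quasi-likelihood model took all 8 of them. Two-sided p-values were adjusted by Benjamini-Hochberg over the 15075 genes tested. P-values measure the spread between these samples, since the labels say of the animals only that they share a litter. Ratios were tested by exact permutation over libraries, with 0.5 added to each count. Likeness is Pearson's r of log2 CPM (prior count 2) among genes with a mean of at least 10 CPM. Levels per kilobase use GENCODE vM21 transcript lengths.

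The members, the gene lists, the cell type markers and the tests were chosen with earlier results of these data known. Named genes are the 8 members, Actn2, up to 4 genes of each list by smallest p in the homozygous comparison, and the genes most like each member. Unc45b, Hsp90ab1 and single marker genes are named beside these. The microRNA genes and Mhrt were added after their values were seen. Positions are from GENCODE vM21, microRNAs and promoters from RefSeq (GRCm38.p6), where microRNAs of all 3 heavy chain genes and promoters of all 8 members matched. The RefSeq starts of Myl2 lie away from its GENCODE start and its promoter is not printed. Protein sequences were not used here.

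The alternatives were scaling by total counts or DESeq2 size factors, testing genes of any count, DESeq2 1.42.0 or limma-voom (limma 3.58.1) as the tool, a non-robust model, models of the compared groups alone, a replicate block, a sex term read from Xist, a correction for gene properties, and leaving out each library. After seeing the data, list counts were also restricted to genes that pass the filter in the WT libraries alone and in the deletion libraries alone. For the correction, splines (4 df) of GC content and of the lengths of transcript and 3′ UTR were fitted to each library's deviation from the mean log2 CPM of 13904 genes and used as an offset. The fit was tested on simulated counts, drawn for every library from the same mean per gene, with changes added only in homozygous libraries. Those counts held no WT library that stood apart and no trend with gene properties, so these limits were not tested.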

Additional observations from a re-analysis of the deposited data

How the results depend on the processing

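With 2 WT libraries that differ more from each other than the deletion libraries do, WT library 2 and the correction for gene properties had the most weight. Depth was not limiting for the members. Of the values followed, 1419 kept their direction and their side of the threshold or stayed within 1.5 times. Besides these, 56 lost their call, 11 gained one, 14 turned sign and 24 counts moved further. The 1419 include values that were uncalled before and after. Leaving out a WT library leaves 1 of that genotype, assumed to vary like the other groups. The cause of the changes given here was not tested.

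Genes called against WT, in homozygous, heterozygous and both deletion genotypes, numbered 4180, 4219 and 5086, and after the correction 2046, 1921 and 2742. Leaving out 1 library at a time gave 2135 to 5717, 2359 to 5634 and 2610 to 6180. The lowest values came without WT library 2, and the homozygous count was 2564 without homozygous 3. With only the groups compared, the heterozygous count was 2668. For homozygous against heterozygous, 2 genes were called with no filter on low counts, 3 by DESeq2, 1 by limma-voom, and 0 to 1 with a library left out.

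Members called against WT numbered 5, 5 and 6, beside 27.7%, 28% and 33.7% of all genes. After the correction the members called numbered 3, 2 and 3, beside 14.7%, 13.8% and 19.7% of all genes. They ranged over 3 to 5, 2 to 5 and 3 to 6 with a library left out. With only the groups compared, 2 were called in heterozygous hearts, beside 18% of all genes.

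The replicate number was tested as a block. Samples with the same number deviated together at r = -0.023 to 0.18, and those with different numbers at r = -0.23 to 0.13. By Xist, number 1 was male and number 2 female in every genotype, so the number partly follows sex. These values do not settle whether the numbers pair the samples. With the replicate block, 3 members were called in heterozygous hearts, beside 22.4% of all genes, since Myl2 and Myl3 lost their calls.

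Signs turned as follows. After the correction the log2 fold change in homozygous hearts was 0.10 for Myl3, 0.092 for Mybpc3 and -0.033 for Ttn, that of Ttn in heterozygous hearts was -0.40, and that of Myl3 over both genotypes was 0.036. With each library left out in turn, Mybpc3 in homozygous hearts ranged from -0.19 to 0.053. For homozygous against heterozygous such ranges were -0.10 to 0.12 for Myh6, -0.034 to 0.24 for Mylk3 and -0.19 to 0.085 for Mylk4, which was at 0.033 with the term for sex. The log2 ratio of Myh7 to Myh6 ranged from -0.42 to 0.088, the highest without WT library 2.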
